A study of Arabidopsis thaliana with 21 samples.

Results

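The genes described here are 8 regulators of the shoot apical meristem of *Arabidopsis thaliana*, taken as a list of named loci out of 27444 protein-coding genes on chromosomes 1 to 5. They were chosen by name and not by a cut-off on any measured value, although with earlier results of these data known. They are the class I KNOX homeobox genes *STM* (*SHOOT MERISTEMLESS*, AT1G62360), *KNAT1* (AT4G08150), *KNAT2* (AT1G70510) and *KNAT6* (AT1G23380), the homeobox gene *WUS* (*WUSCHEL*, AT2G17950), and the NAC genes *CUC1* (AT3G15170), *CUC2* (AT5G53950) and *CUC3* (AT1G76420). For each gene, peaks were collected that overlapped its gene body or the 1000 bp upstream of its transcription start site (TSS), by antibody, genotype and replicate. Of the 8 genes, 6 had a peak in at least 1 H2A.Z list and 2 (*KNAT1* and *KNAT2*) had none, while 0 of 8 had a peak in any list of acetylated histone H4 (H4Ac).

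The shoot apical meristem holds the stem cells from which leaves, stem and flowers arise. *WUS* is transcribed in a small group of cells below the stem cells and keeps them undifferentiated, while *STM* and the other class I KNOX genes act across the meristem and are kept silent in leaves. The CUC genes mark the boundaries between meristem and organs, are needed to set up *STM* expression in the embryo, and *CUC1* and *CUC2*, unlike *CUC3*, are targets of the microRNA miR164. H2A.Z is a variant of histone H2A that the SWR1 complex places into nucleosomes, often near the start of genes and, in genes that respond to signals or developmental state, across the gene body. MBD9, which carries a domain of the methyl-CpG-binding family, associates with SWR1 in Arabidopsis, and acetylation of the H4 tail is a mark of transcribed chromatin.

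The peak lists came from *mbd9-1* seedlings (3 libraries with an H2A.Z antibody), from WT seedlings with an antiserum against H4Ac (3 libraries) and from WT seedlings with the H2A.Z antibody (3 libraries). Seedlings were 6 days old, of the Col-0 background, and had their roots removed. The *mbd9-1* plants carry a T-DNA insertion in *MBD9*, a single allele. The *arp6-1* libraries, the *mbd9-1* H4Ac libraries and the inputs were not analysed here. Peaks were called in each library separately, and a list gives only the position of each peak, so the height of a peak and the reads in a window without a peak cannot be read from it. Read numbers per library are given by the study but are not in the lists and were not used here. A window without a called peak is therefore not a window shown to lack H2A.Z. The material is a mixture of all shoot tissues in which the meristem is a small part, so fewer cells with H2A.Z at a gene and less H2A.Z per cell cannot be told apart, and no transcript was measured with which the presence of meristem cells could be checked.

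The *mbd9-1* lists held 5215, 5733 and 5633 peaks, the WT H4Ac lists 10439 to 12030, and the WT H2A.Z lists 9260, 6263 and 8121. The list of *mbd9-1* replicate 3 stood apart: 64.4% of its peaks had a single width of 381 bp, where the most common width of the other H2A.Z lists was held by 29.7% to 47.8% of their peaks, and it covered 2739 kb in all, the least of the 9 lists. The values that moved most with it are given with and without it. Nearly every 50-base stretch of the 8 windows occurs once in the TAIR10.1 genome, from 99.96% in *KNAT2* to 100% in the other 7 genes, and the sequenced reads were 50 bases long. Shared sequence between paralogs thus covers almost none of these windows.

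In WT, H2A.Z peaks were found at 4 of the 8 genes in all 3 lists (*KNAT6*, *WUS*, *CUC1* and *CUC3*), and at *CUC2* in 2 lists. Over all protein-coding genes, 17.8% had a peak in all 3 WT lists and 31.9% in at least 2, so 4 and 5 of 8 genes lay above these shares. No test was made of this. The gene with the most of its window under WT peaks was *CUC3* (36.6% ± 15.0, SD, n = 3), followed by *CUC1* (34.5% ± 2.36), *WUS* (18.8% ± 6.43), *CUC2* (15.2% ± 13.3) and *KNAT6* (14.6% ± 7.30). Neighbours in this order overlapped, except that *CUC1*, whose 3 WT values were close together, lay above *WUS* in every WT list. The other 3 genes, *STM*, *KNAT1* and *KNAT2*, had no WT peak. Thus 1 of 4 class I KNOX genes and 3 of 3 CUC genes had peaks in at least 2 WT lists.

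**Figure D1:**
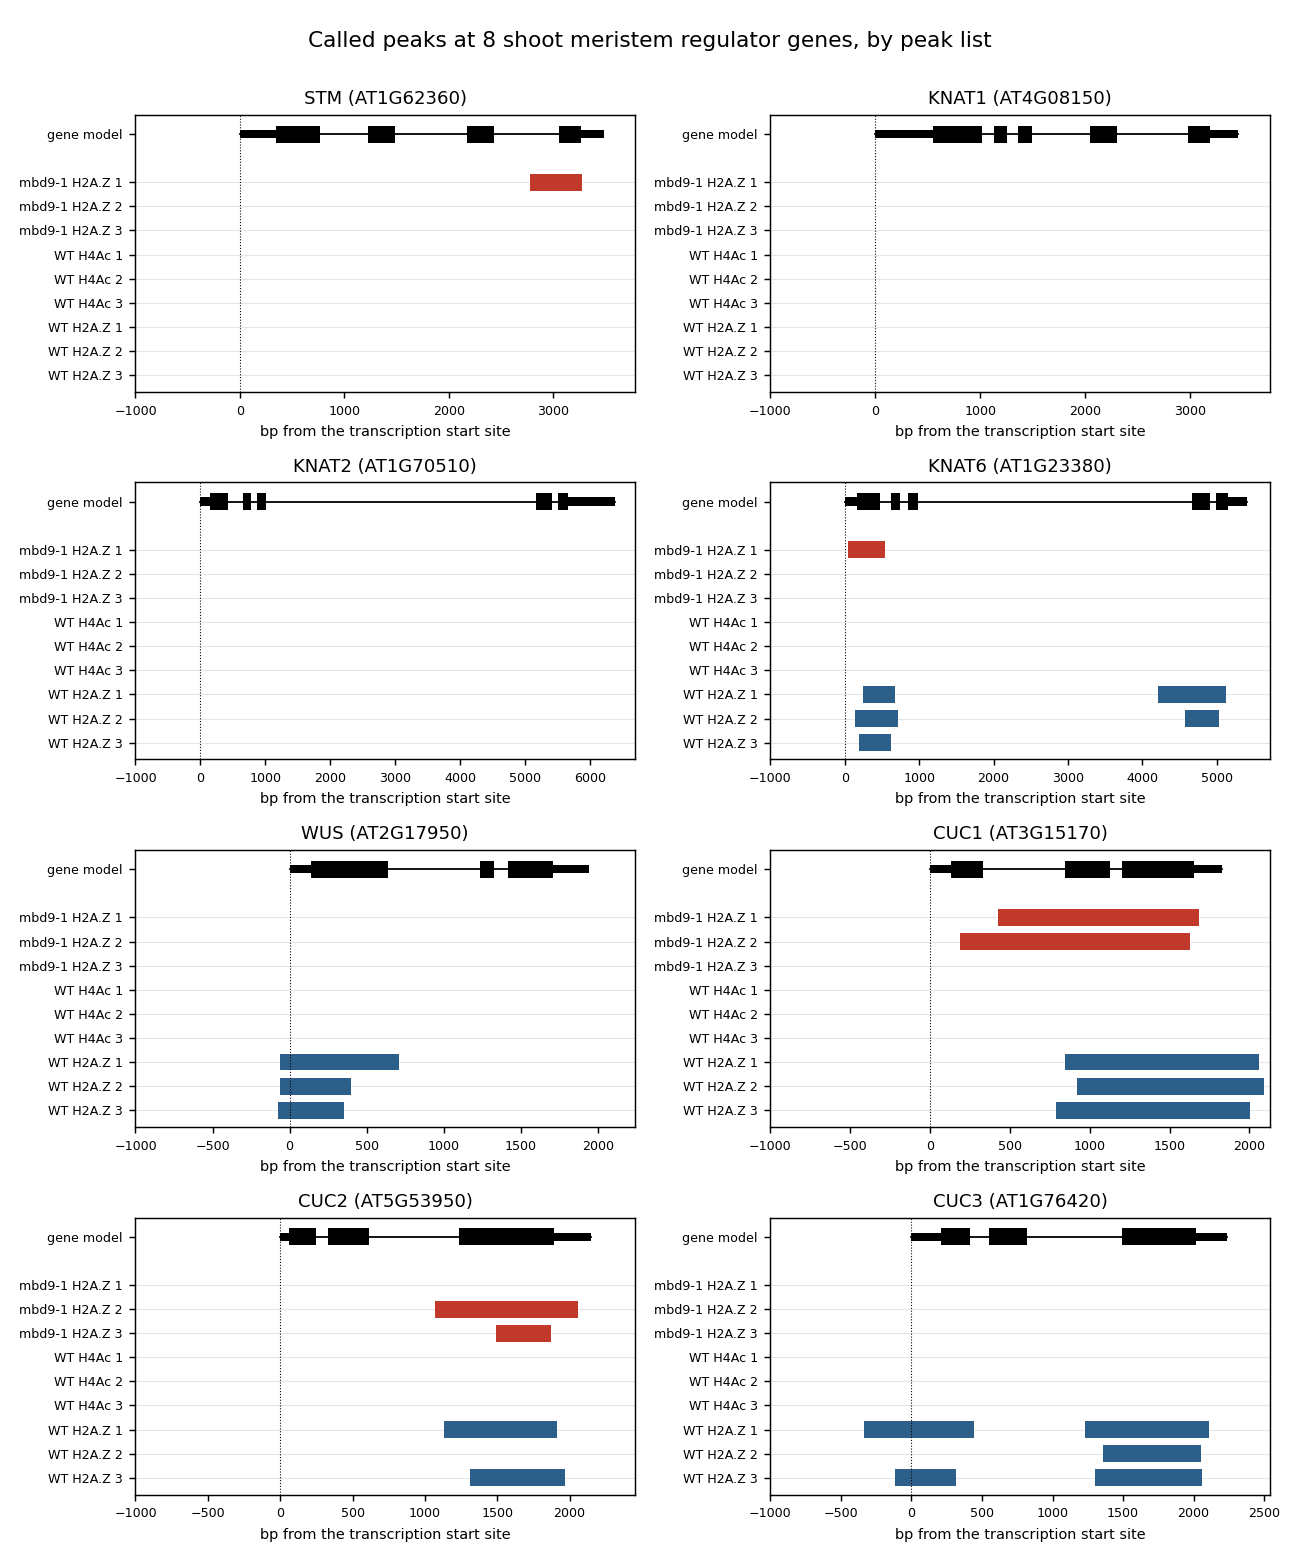
Position of every called peak at the 8 genes, in bp from the TSS (dotted line), with the gene model on top (thick, coding exons; thin boxes, untranslated exons; line, introns), then the lists of *mbd9-1* H2A.Z, WT H4Ac and WT H2A.Z, replicates 1 to 3 each. The WT H2A.Z peaks lie at the 5′ end of *WUS*, at the 3′ end of *CUC1* and *CUC2* and at both ends of *KNAT6* and *CUC3*, and the H4Ac rows are empty.

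To show the DNA that carried these peaks, the 30 coding bases richest in CG dinucleotides were taken from the stretch shared by all 3 WT lists (by 2 lists for *CUC2*), read 5′ to 3′ on the strand of the gene from TAIR10.1, with each CG in capitals. In plants, methylation of gene bodies falls mostly on such CG sites, and MBD9 is named for a domain of the kind that binds them in animals. By the study's account, the domain of MBD9 itself is thought to bind DNA without methylation.
*KNAT6* (chr1:8302285-8302314, minus strand, 337 to 366 bp from the TSS): cCGctttgtCGtCGgaggCGgcttCGatCG
*WUS* (chr2:7810546-7810575, minus strand, 236 to 265 bp): CGccagaccagcaCGaggtggacacCGaCG
*CUC1* (chr3:5111227-5111256, plus strand, 1445 to 1474 bp): caCGtcagccaCGtcaCGtCGgtgatggCG
*CUC2* (chr5:21902316-21902345, minus strand, 1509 to 1538 bp): cCGtcacagccagCGcaataacCGagcaCG
*CUC3* (chr1:28672196-28672225, minus strand, 1820 to 1849 bp): aCGaCGaagaCGacttCGactttaacctCG

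These stretches were picked for their CG content and are a description only. Over the whole shared stretch, the ratio of observed CG dinucleotides to the number expected from the C and G content was 1.61 in *KNAT6* (378 bp), against 0.71 in its whole window. It was 0.85 in *WUS* (414 bp, against 0.79 in its window), 0.88 in *CUC1* (1086 bp, against 0.73), 0.98 in *CUC2* (602 bp, against 0.82) and 0.68 in *CUC3* (697 bp, against 0.65). The median was 0.82 over all 23644 WT H2A.Z peaks and 0.72 over the windows of all protein-coding genes. By this ratio, the shared stretch of *KNAT6* was thus the highest of the 5. Those of *WUS*, *CUC1* and *CUC2* were also above the median peak, and that of *CUC3* was below it. The windows of the genes without WT peaks had ratios of 0.51 (*STM*), 0.64 (*KNAT1*) and 0.72 (*KNAT2*), so *STM* had the lowest value of the 8 and *KNAT2* sat at the median of all genes.

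The number of meristem genes with an H2A.Z peak was 3, 2 and 1 in the *mbd9-1* lists (mean 2 ± 1) and 5, 4 and 5 in the WT lists (mean 4.67 ± 0.58, SD, n = 3 each), and the 2 ranges did not overlap. The mean percentage of a window under peaks was 7.91%, 10.3% and 1.51% in *mbd9-1* and 19.8%, 10.7% and 14.4% in WT, so that *mbd9-1* replicate 2 came close to WT replicate 2. The *mbd9-1* minus WT difference was −2.67 genes and −8.41 percentage points, and without *mbd9-1* replicate 3 it was −2.17 genes and −5.88 points. Fewer genes with a peak were found genome-wide as well, at 20.0% ± 3.91 of all protein-coding genes per *mbd9-1* list (22.1% without *mbd9-1* replicate 3) and 32.1% ± 5.90 per WT list. Of the 15234 genes with a peak in any H2A.Z list, 68.7% had a lower mean in *mbd9-1*, with a median difference of −5.03 percentage points (67.4% and −4.75 points without *mbd9-1* replicate 3). Every *mbd9-1* list was below every WT list for 2 of the 8 genes (*WUS* and *CUC3*), where 9.95% of all genes were, and every *mbd9-1* list was above every WT list for 0 of 8, where 1.21% of all genes were. Without *mbd9-1* replicate 3 the 2 counts were 2 and 1 of 8, beside 10.2% and 5.01% of all genes. With 3 lists against 3, an exact permutation test cannot give a p below 0.1, so no single gene could pass 0.05, and a complete separation of the lists is given instead.

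**Figure D2:**
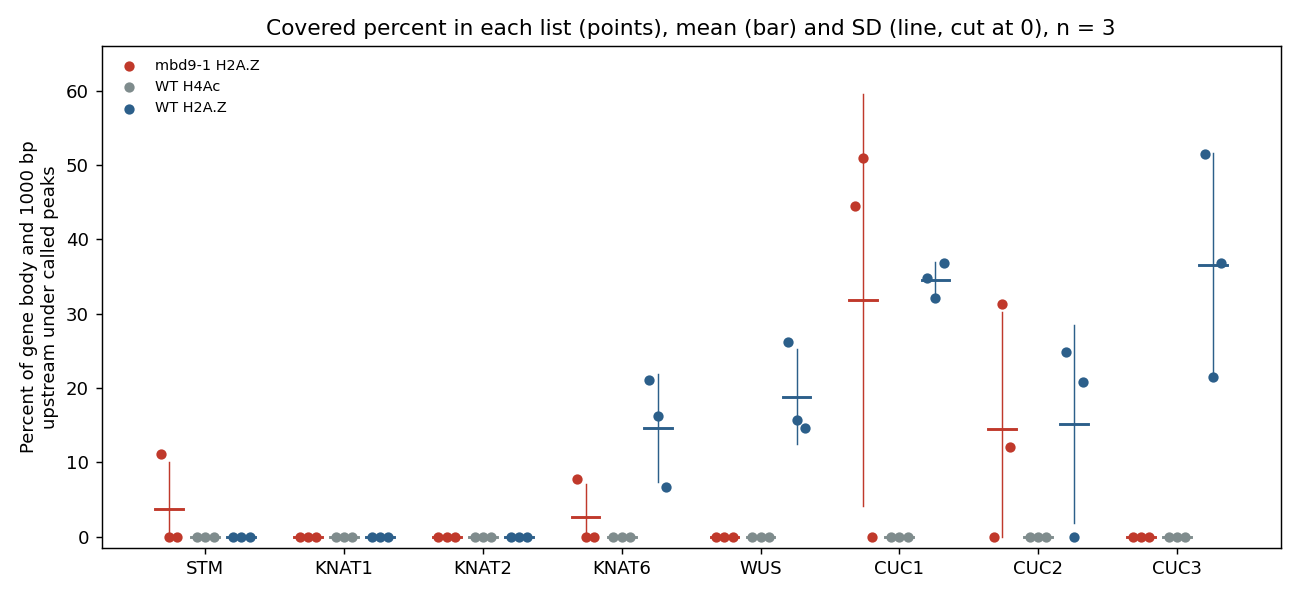
Percentage of each gene's window (gene body and 1000 bp upstream) under called peaks on the y axis for the 8 genes on the x axis, with *mbd9-1* H2A.Z at the left, WT H4Ac in the middle and WT H2A.Z at the right of each gene. Points are single lists, bars are means and lines are SD (n = 3). At *WUS* and *CUC3* all *mbd9-1* points lie at 0 and all WT H2A.Z points above it, while at *CUC1* and *CUC2* the points of the genotypes overlap.

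*WUS* encodes the homeodomain protein that maintains the stem cells. Its window had 0%, 0% and 0% under H2A.Z peaks in *mbd9-1*, against 26.2%, 15.7% and 14.6% in WT. All WT lists were above all *mbd9-1* lists, and the difference was −18.8 percentage points (exact two-sided permutation p = 0.1, the smallest possible). The gene lies on chromosome 2 (7808871 to 7810811 in TAIR10.1, minus strand) and has 3 exons. The WT peaks spanned the TSS and ran from −62 to 708 bp, −65 to 395 bp and −76 to 351 bp, counted from 0 at the TSS with negative values upstream. All 3 lists shared 414 bp, made up of 62 bp upstream, 140 bp of 5′ UTR and 212 bp of coding sequence in the first exon, including the start codon. The WT peaks of replicates 2 and 3 were only as wide as the most common peak of their lists (461 and 428 bp). The separation of *WUS* was lost when the peaks no wider than the lower quartile of width of their list were left out. It was also lost when only the widest peaks, equal in number for all H2A.Z lists, were kept. The nearest H2A.Z peak to the gene in *mbd9-1* lay 12797 to 32237 bp away.

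*CUC3*, the member of the trio that is not regulated by miR164, also had 0%, 0% and 0% of its window under peaks in *mbd9-1*, against 51.5%, 21.5% and 36.8% in WT. The lists of the genotypes did not overlap, and the difference of −36.6 percentage points was the largest of the 8 genes (exact permutation p = 0.1). *CUC3* is on chromosome 1 (28671806 to 28674045, minus strand) and has 3 exons. Besides *KNAT6*, it was the only gene of the 8 with separate peaks at its 5′ and 3′ ends in the same list. A 3′ peak was present in all WT lists, at 1227 to 2110 bp, 1356 to 2052 bp and 1298 to 2060 bp, and its shared 697 bp held 525 bp of coding sequence of the last exon, 136 bp of intron and 36 bp of 3′ UTR. A 5′ peak spanned the TSS in WT replicates 1 (−338 to 446 bp) and 3 (−113 to 314 bp) only. The separation of *CUC3* held under every alternative that was tried, and the nearest *mbd9-1* peak was 5447 to 16219 bp from the gene.

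For the genes with a peak in all 3 WT lists, no *mbd9-1* peak was found at 2 of 4, where 29.8% of the 4885 such genes had none. Without *mbd9-1* replicate 3 it was again 2 of 4, where 33.5% of these genes had none. Both *WUS* and *CUC3* belong to these, and their 5′ peaks over the TSS were absent from the *mbd9-1* lists.

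At *CUC1* the genotypes overlapped. This NAC gene had 44.5%, 50.9% and 0% of its window under peaks in *mbd9-1*, against 34.8%, 32.1% and 36.8% in WT. The first 2 *mbd9-1* lists were above every WT list and the third was below every WT list, so the groups overlapped, and the difference in means was −2.75 percentage points (31.8% ± 27.7 in *mbd9-1* and 34.5% ± 2.36 in WT, SD, n = 3 each, exact permutation p = 1). Without *mbd9-1* replicate 3, the list that stood apart, the difference was +13.2 points and the groups no longer overlapped (exact permutation p = 0.1, again the smallest possible), as was then the case in this direction for 5.01% of all genes. The gene is on chromosome 3 (5109782 to 5111608, plus strand), and its WT peaks, at 844 to 2061 bp, 920 to 2090 bp and 787 to 2005 bp, ran past the 3′ end of the gene, which is 1827 bp long. They shared 1086 bp, of which 656 bp were coding, 78 bp intron, 173 bp 3′ UTR and 179 bp downstream.

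The *mbd9-1* peaks of *CUC1* began further 5′, at 426 and 188 bp from the TSS, and ended inside the gene, at 1683 and 1626 bp. They covered 416 and 513 of the 513 bp of the first intron, where the WT peaks covered 0, 0 and 55 bp. The second intron, of 78 bp, was wholly under the peaks of these *mbd9-1* lists and of every WT list. Of the bp under an *mbd9-1* peak, 49.1% to 71.3% also lay under a given WT peak, and of the bp under a WT peak 60.4% to 73.6% lay under a given *mbd9-1* peak. The first peak base of both *mbd9-1* lists was upstream of that of every WT list. Among the 1915 genes with a peak in these 5 lists, this was so for 21.7%, and the opposite order was found for 30.1%, so neither order was rare.

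*CUC2* had 0%, 31.3% and 12.1% of its window under peaks in *mbd9-1*, against 24.8%, 0% and 20.7% in WT. A library of each genotype had no peak, the values overlapped, and the difference was −0.73 percentage points (14.5% ± 15.8 in *mbd9-1* and 15.2% ± 13.3 in WT, SD, n = 3 each, exact permutation p = 1). Leaving out a single list turned its sign in 4 of 6 cases, so no direction can be given, and without *mbd9-1* replicate 3 it was +0.45 points. Where peaks were called, they overlapped in position. The list of *mbd9-1* replicate 2 had a peak at 1073 to 2058 bp, which held 100% of the covered bp of WT replicates 1 (1133 to 1915 bp) and 3 (1314 to 1966 bp). The peak of *mbd9-1* replicate 3 (1491 to 1871 bp) was 381 bp wide, the most common width of that list, lay wholly in the coding part of the last exon and fell inside the WT peaks. *CUC2* is on chromosome 5 (21901704 to 21903854, minus strand) and has 3 exons.

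The peaks of *CUC1* and *CUC2* lay over the part of the last exon that miR164 targets. The microRNA and the matching sites are shown to place the peaks relative to a known feature of these genes. In the microRNA, bases 2 to 8 (the seed) are in capitals, and in the sites the 3 bases that differ from the reverse complement of miR164a are in capitals. DNA letters are used for the microRNA, as in the genome.
miR164a (chr2:19520770-19520790, plus strand): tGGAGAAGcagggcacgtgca
*CUC1* site (chr3:5111137-5111157, plus strand): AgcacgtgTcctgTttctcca
*CUC2* site (chr5:21902301-21902321, minus strand): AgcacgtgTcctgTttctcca

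The site is the same in both genes and lies at 1355 to 1375 bp from the TSS of *CUC1* and 1533 to 1553 bp from that of *CUC2*, in the coding sequence. It was under a peak in 2 *mbd9-1* and 3 WT lists at *CUC1*, and in 2 *mbd9-1* and 2 WT lists at *CUC2*, which is every H2A.Z list with a peak at these genes. A site with at most 3 mismatches to the reverse complement of miR164a, searched on the sense strand of 27440 mRNAs (the longest of each gene), was found in 6 of them (0.022%), *CUC1* and *CUC2* included. The best match in the *CUC3* mRNA had 9 mismatches, and no site is printed for it. That stretch of *CUC3*, at 1972 to 1992 bp, was under a peak in 3 WT and 0 *mbd9-1* lists. With 9 mismatches, that stretch is not taken as a counterpart of the site. Peaks over the coding part of the last exon were nonetheless not particular to the miR164 targets. The miR164 site acts in RNA, and its overlap with the peaks is given as a position only.

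Among the class I KNOX genes, *KNAT6*, which acts with *STM* in meristem maintenance and boundary formation, was alone in having WT peaks. Its window had 7.72%, 0% and 0% under peaks in *mbd9-1*, against 21.0%, 16.2% and 6.68% in WT. The value of *mbd9-1* replicate 1 lay above that of WT replicate 3, so the groups overlapped, and the difference was −12.1 percentage points (2.57% ± 4.46 in *mbd9-1* and 14.6% ± 7.30 in WT, SD, n = 3 each, exact permutation p = 0.2). Without *mbd9-1* replicate 1 (difference −14.6 points) or without WT replicate 3 (−16.0 points), every remaining *mbd9-1* list was below every WT list, as then were 10.9% and 13.1% of all genes. *KNAT6* is on chromosome 1 (8297241 to 8302651, minus strand), with 5 exons and a longest intron of 3676 bp. A peak over the first exon was present in *mbd9-1* replicate 1 (45 to 539 bp) and in all WT lists (242 to 680 bp, 143 to 720 bp and 192 to 619 bp), and the 378 bp shared in WT held 238 coding and 140 intronic bp. Of the bp under the *mbd9-1* peak, 60.2% to 80.2% lay under the WT peaks. A second peak near the 3′ end, at 4214 to 5121 bp and 4573 to 5033 bp, was called in WT replicates 1 and 2 only, and the long intron between the ends had peak bases only at its 3′ end. A long non-coding RNA gene (AT1G05797) takes up 218 bp of the upstream part of the window, on which no peak was called.

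*STM*, the KNOX gene without which no shoot meristem is kept, had 11.0%, 0% and 0% of its window under peaks in *mbd9-1*, against 0%, 0% and 0% in WT. The peak of *mbd9-1* replicate 1 lay at 2777 to 3271 bp, over the last intron (281 bp) and the coding part of the last exon (210 bp). It was 495 bp wide, the most common width of its list, and was found in a single library, so the difference of +3.68 percentage points did not exceed the spread between replicates (exact permutation p = 1). *STM* lies on chromosome 1 (23058582 to 23062063, minus strand). In WT the nearest H2A.Z peak was 536 to 13023 bp from the gene.

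*KNAT1*, also known as *BREVIPEDICELLUS*, and *KNAT2* had no H2A.Z peak in any of the 6 lists. *KNAT1* is on chromosome 4 (5147699 to 5151159, minus strand), and *KNAT2* on chromosome 1 (26576486 to 26582879, plus strand). No H2A.Z peak was found for 44.5% of all protein-coding genes, so the share of 2 in 8 was below that of all genes. *KNAT2* has the longest window of the 8 (7394 bp, against a median of 3078 bp over all genes), and among the 684 genes with a window at least as long, 50.3% had no H2A.Z peak. The nearest H2A.Z peaks were 5576 to 16458 bp from *KNAT2* in *mbd9-1* and 5492 to 14648 bp in WT, and 2540 to 60210 bp from *KNAT1* in *mbd9-1* and 4881 to 7594 bp in WT. *KNAT2* and *KNAT6* are close relatives with the same exon number and a long intron in the same place, and of the pair only *KNAT6* had H2A.Z peaks.

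No meristem gene had a peak in all 3 *mbd9-1* lists, a state found for 7.07% of all genes. Without *mbd9-1* replicate 3, *CUC1* had a peak in both remaining lists, as did 13.9% of all genes. The genes most often called in *mbd9-1* were *CUC1* and *CUC2*, with 2 of 3 lists each. Of the 6 *mbd9-1* peaks called at the 8 genes, 3 had the most common width of their list, as did 6 of the 18 WT peaks. Over whole lists, this width was held by 35.2% to 64.4% of *mbd9-1* peaks and 29.7% to 41.3% of WT H2A.Z peaks. The *mbd9-1* peaks at *STM* and *KNAT6* and the peak of replicate 3 at *CUC2* were of this kind. So were WT peaks at *KNAT6* (in every WT list), *WUS* (replicates 2 and 3) and *CUC3* (the 5′ peak of replicate 3). The *mbd9-1* peaks at *CUC1* were the widest of all, at 1258 and 1439 bp.

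H4 acetylation was compared with H2A.Z in WT, from the same chromatin samples, divided between the antibodies according to the study's methods. Same-numbered lists were taken to share their plants, which neither the methods nor the labels state. All 8 genes had 0% of their window under H4Ac peaks in all 3 lists, although 48.1% ± 3.21 of all protein-coding genes had an H4Ac peak per list. No H4Ac peak in any list was found for 43.5% of all genes. For the genes with an H2A.Z peak in at least 2 WT lists, no H4Ac peak was found at 5 of 5 meristem genes and at 49.9% of the 8751 genes in all. The H4Ac lists were all below the H2A.Z lists for *KNAT6*, *WUS*, *CUC1* and *CUC3* (exact permutation p = 0.1 each), as they were for 11.9% of all genes, and overlapped with them for *CUC2* (p = 0.4, exact permutation test). With H4Ac at 0 throughout, this separation only restates that these 4 genes had an H2A.Z peak in every WT list. Paired by replicate number, the exact sign-flip p of these 4 genes was 0.25, the smallest that 3 pairs allow. The 2 antibodies gave separately called lists, so these differences are in called positions and not in amounts.

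H4Ac peaks lay close to some of these genes but outside the windows. The nearest was 142 to 158 bp downstream of *KNAT6*, with its centre in the neighbouring gene AT1G23360, and 201 to 265 bp downstream of *CUC1*, with its centre in AT3G15180, in every list. At *KNAT2* a peak began 368 to 519 bp downstream of the gene. The other 5 genes were further from H4Ac, with the nearest peak 1651 to 10563 bp from *STM*, 3990 to 18098 bp from *KNAT1*, 6221 to 6516 bp from *WUS*, 2947 to 5201 bp from *CUC2* and 2388 to 9085 bp from *CUC3*. At *KNAT6*, *CUC1* and *KNAT2* the stretch without H4Ac peaks thus ended just past the gene in every list, and at the other genes it reached further.

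To set these genes beside the pathway, 52 related genes were examined in the same way. They were other KNOX and WOX genes, BELL proteins that pair with KNOX proteins, the CLAVATA peptide and receptors that restrict *WUS*, HAM and TOPLESS partners of WUS, leaf repressors of KNOX genes, other boundary genes, HD-ZIP III genes, and cytokinin and gibberellin genes downstream of KNOX and WUS. Of these, 8 of 52 had an H2A.Z peak in all 3 WT lists, 16 in at least 2 and 28 in none, and 4 had a peak in all 3 *mbd9-1* lists. The same states were found for 17.8%, 31.9%, 53.4% and 7.07% of all genes, so these counts were near the genome-wide shares. H4Ac peaks were found in at least 1 list at 26 of 52, and 26 of 52 had none, where 43.5% of all genes and 8 of 8 regulators had none. They were found in all 3 lists at 16, for which no share of all genes is given. Of the 16 related genes with H2A.Z in at least 2 WT lists, 13 had no H4Ac peak, where 49.9% of the 8751 such genes in all had none. No test was made of this.

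**Figure D3:**
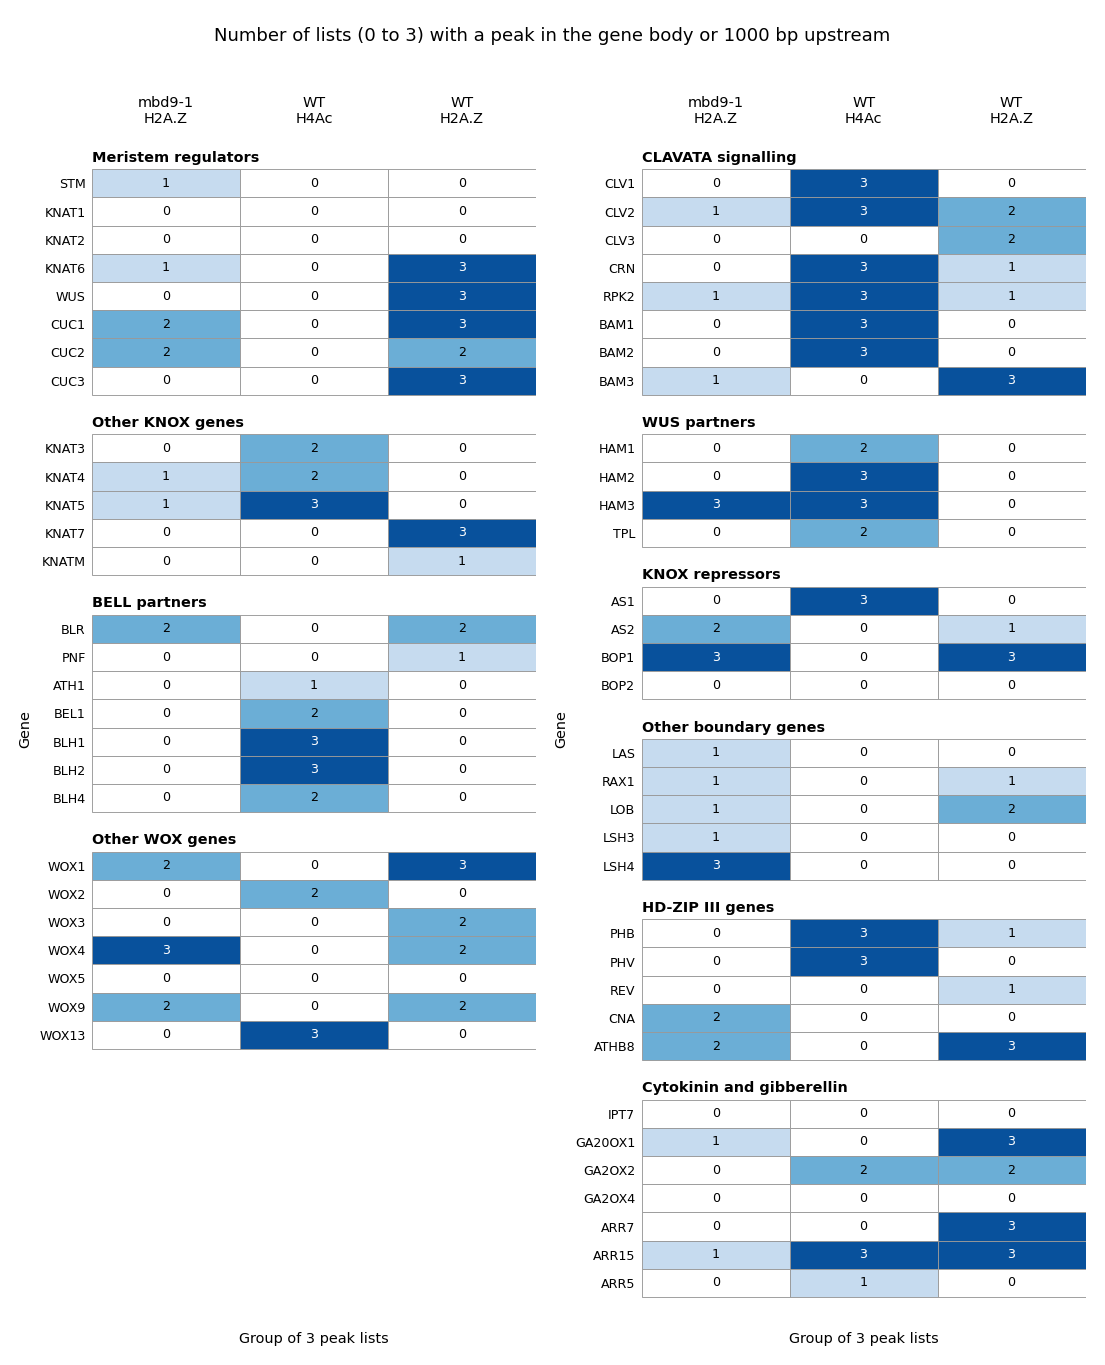
Number of lists, from 0 to 3, with a peak in the gene body or the 1000 bp upstream, for the 8 meristem regulators (top left) and 52 related genes in rows, and *mbd9-1* H2A.Z, WT H4Ac and WT H2A.Z in columns, with darker cells for more lists. The H4Ac column is 0 for all 8 meristem regulators and above 0 for 26 of the 52 related genes, such as *CLV1*, *BAM1* and *AS1* with 3 each.

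By group, an H4Ac peak in at least 1 list was found at 0 of 5 other boundary genes, 4 of 4 WUS partners and 6 of 8 CLAVATA genes. Over all genes, 43.5% had no H4Ac peak in any list. These groups are small, and no test was made between them. The receptor genes of CLAVATA signalling did not share a pattern. *CLV1*, *BAM1* and *BAM2* had H4Ac in all lists and no WT H2A.Z peak. *CLV2*, *CRN* and *RPK2* had H4Ac in all lists and H2A.Z in 2, 1 and 1 WT lists. *BAM3* had no H4Ac peak and H2A.Z in all WT lists. *CLV3*, which encodes the peptide made in the stem cells, had no H4Ac peak and H2A.Z in 2 WT lists. *AS1*, which keeps KNOX genes silent in leaves, had 43.7% of its window under H4Ac peaks on average and no H2A.Z peak in either genotype. These genes were named after their values were seen.

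Every *mbd9-1* list was below every WT list for 4 of the 52 related genes and above for 3, beside 9.95% and 1.21% of all genes. Without *mbd9-1* replicate 3 there were 4 below and 4 above (*AS2* added), beside 10.2% and 5.01% of all genes. By the rule for naming, *KNAT7*, a class II KNOX gene, had no *mbd9-1* peak and a mean of 12.7% under WT peaks, and *ARR7*, a cytokinin response regulator that is repressed by WUS, had no *mbd9-1* peak and a mean of 30.1% in WT. *BOP1*, which acts at leaf bases to keep KNOX genes silent, was the only related gene with a peak in all 6 H2A.Z lists, with means of 18.04% in *mbd9-1* and 27.4% in WT. The 3 genes above WT in *mbd9-1* were *HAM3* (25.3% in *mbd9-1* and 0% in WT), *LSH4* (16.7% in *mbd9-1* and 0% in WT) and *WOX4* (21.4% in *mbd9-1* and 10.9% in WT), named after their values were seen. *HAM3* encodes a GRAS protein that partners WUS, *LSH4* acts at organ boundaries, and *WOX4* acts in the vascular cambium.

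The genes with the most similar peak pattern were found by the sum of absolute differences over 18 values, the percentage covered of the gene body and of the upstream 1000 bp in each of the 9 lists. The nearest gene to *KNAT6* was AT2G26450, at 10.9 summed percentage points, to *WUS* AT1G26320 at 24.5, to *CUC2* AT3G55650 at 19.3, to *CUC3* AT2G20515 at 35.9, and to *CUC1* *RAP2.9* (AT4G06746) at 35.4. None of the 5 was another meristem regulator or one of the 52 related genes. Members and related genes together are 60 of the 27444 protein-coding genes, so such a match was unlikely from the start.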

How the data were processed

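H2A.Z and H4Ac were measured by ChIP-seq in seedlings, and libraries were grouped by the genotype, antibody and replicate number in their labels. The authors mapped 50-nt reads to TAIR10 with Bowtie2, filtered them for quality and nuclear origin, and ran HOMER (Findpeaks, region option) on each library against input, without scaling to equal depth. For HOMER, neither version nor cut-off is given in the sources used here. The deposited lists hold chromosome, start and end only, so no interval for counting error can be given. Genes and sequences are from RefSeq TAIR10.1, whose chromosomes contain all peaks. Python 3.11.15, NumPy 2.4.6 and matplotlib 3.10.9 were used.

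For each protein-coding gene, the percentage of the window under peaks (minimum overlap 1 bp) was computed per list and compared by exact two-sided permutation tests. The study's methods split each chromatin sample between the antibodies. WT H4Ac and H2A.Z libraries of the same number were taken to share a sample, which neither the methods nor the labels state. The deviations of these libraries from the group means did not correlate across genes (−0.003, 0.008 and 0.013), so the values do not show such a pairing. Positions are in the longest mRNA. The coverage and test steps were checked on simulated windows. The alternatives were an overlap of 200 bp, gene body only, 500 bp upstream, lists without the narrowest peaks, and lists of equal length. Further alternatives were peaks held to 50% in another replicate, peaks centred in the window, leaving out each replicate, and a replicate block. The narrowest peaks were those no wider than the lower quartile of width of their list. All 8 genes are named; of related genes, those called in all WT and no *mbd9-1* list or in all H2A.Z lists, and others as stated. The members and lists were chosen with earlier results of these data known.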

Additional observations from a re-analysis of the deposited data

How the results depend on the processing

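Without the narrowest peaks, and with H2A.Z lists cut to equal length, 1 gene (*CUC3*) instead of 2 had every *mbd9-1* list below every WT list. The former setting took out the *WUS* peaks of WT replicates 2 and 3 (difference −8.74 points), the latter only that of replicate 3 (−14.0 points). The former dropped all peaks of the most common width, held by 29.7% to 64.4% of an H2A.Z list, so the share removed differed between lists. Leaving out a replicate gave 2 to 3 such genes (3 with *KNAT6*, without *mbd9-1* replicate 1 or WT replicate 3), and 0 to 1 above WT (*CUC1*, without *mbd9-1* replicate 3). With a replicate left out, the difference for *CUC1* ranged from −12.3 to 13.2 percentage points and that for *CUC2* from −9.15 to 6.50 (−11.2 for *CUC2* when a peak had to be held by another replicate). That requirement also separated *KNAT6* (−14.6 points, 3 genes in all), whose difference was −7.73 without the narrowest peaks and −7.55 with lists of equal length. The peak of *STM* was lost without the narrowest peaks and when a peak had to be held by another replicate. The mean number of genes with a peak, H4Ac minus H2A.Z, was −3.67 without the narrowest peaks (main −4.67), and the mean covered percentage was −20.5 points over gene bodies alone (main −15.0). Of 154 alternatives for single genes, 146 kept the direction, 5 turned it (at *CUC1* and *CUC2*) and 3 gave no difference (at *STM*). Where all lists of a group were at 0, the direction could not turn. This was so for every H4Ac comparison and, between genotypes, for *WUS*, *CUC3* and *STM*. A replicate block also leaves each difference as it is. The 146 are therefore no measure of how firm the results are.

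With a replicate block (paired by replicate number), 3 genes (*KNAT6*, *WUS* and *CUC3*) were lower in *mbd9-1* in every pair, with an exact p of 0.25, the smallest that 3 pairs allow. Same-numbered *mbd9-1* and WT libraries did not deviate together (correlations across genes of 0.025, −0.16 and 0.029), so the number is taken as a name only. H4Ac and H2A.Z libraries of a number were taken to come from the same chromatin, although they did not deviate together either. The block could change no direction there, because pairing leaves the mean difference as it is and no H4Ac peak was called at these genes. Peak lists without heights limit every statement to called positions. The lists hold no read numbers, and the part of library depth in these differences was not tested.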
